A study of Rattus norvegicus with 20 samples.

Results

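The sodium channel subunits measured here were Scn1a, Scn2a, Scn3a, Scn8a, Scn9a, Scn10a, Scn11a and Scn2b, 8 of the 4736 genes that had a probe set of their own on the array. They were chosen by name, as every probe set that the platform's probe table assigns to 1 of these genes alone, which gave 12 of the 8740 probe sets tested. A probe set is a group of short oligonucleotides on the array that together read a transcript. The RNA came from rat dorsal root ganglia on the operated side, which hold the cell bodies of the sensory neurons of the limb. It was total RNA, with 1 Affymetrix array for each of 20 samples. After chronic constriction injury (CCI), in which loose ties are placed around the sciatic nerve, 14-day and 21-day ganglia were taken (3 samples each). In the Seltzer operation, commonly a tight tie around part of the nerve but described by the labels as a transection, the sciatic nerve was injured and 2 samples were taken at 14 days, 3 at 21 days and 2 at 50 days. Sham-operated rats gave 2 samples at 14 days, 3 at 21 days and 2 at 50 days. Strain, sex, age, ganglion level and any pooling of animals were not given in the sources used here. Whether replicates are separate animals is not stated, so the spread behind each p-value below may be technical.

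Voltage-gated sodium channels open when the membrane depolarizes and carry the inward current of the action potential. Each has a large alpha subunit that forms the pore and smaller beta subunits that adjust its gating and its place in the membrane. In sensory ganglia, Scn9a, Scn10a and Scn11a encode the alpha subunits best known from nociceptors, the neurons that respond to painful stimuli. Scn9a (Nav1.7) amplifies small depolarizations near threshold, Scn10a (Nav1.8) carries most of the upstroke of the nociceptor action potential, and Scn11a (Nav1.9) carries a persistent current near the resting potential. Scn1a (Nav1.1) and Scn8a (Nav1.6) are known from myelinated neurons, Scn8a as the main channel of the nodes of Ranvier. Scn2a (Nav1.2) is mainly a channel of the central nervous system, Scn3a (Nav1.3) is abundant in the embryo and scarce in adult ganglia, and Scn2b encodes a beta subunit. In the RefSeq annotation of the rat (GRCr8) Scn3a lies next to Scn2a, Scn1a lies next to Scn9a, and 1 protein-coding gene lies between Scn10a and Scn11a.

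The values are deposited linear intensities, of which 29.0% were below 0. The background of an array was set at the magnitude below which 95% of its negative values fell. It lay between 169 and 326 on 17 arrays, at 599 and 766 on both Seltzer 50-day arrays and at 499 on replicate 1 of CCI at 21 days. Array medians ran from 43.2 to 76.5, and precision is limited by how few arrays each group holds. On the Seltzer 50-day arrays the 3' signal of the GAPDH control was 5.10 and 8.89 times that of the middle of the transcript, against at most 2.85 on the others. Of 6 neuronal markers measured, Uchl1, Snap25, Elavl4, Syp and Prph were above background on all 20 arrays and Syt1 on none.

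Of the 12 channel probe sets, 5 were above background on at least 1 array, against 2818 of all 8740. Scn11a (AF059030_at) was above it on 18 arrays, Scn9a (AF000368_at) and Scn10a (X92184_at) on 14 each, Scn3a (Y00766_g_at) on 13 and Scn1a (M22253_at) on 6. The other 7 were above it on no array. They were Scn2a (M22254_at), Scn2b (U37147_at), all 3 probe sets of Scn8a (L39018_at, M27223_at and AF049239_s_at), and the dimmer probe sets of Scn9a (U79568_s_at) and Scn3a (Y00766_at). The dimmer Scn3a probe set and the dimmest of Scn8a had negative values on all 20 arrays, so they carry no measurement of their transcripts. No channel probe set was above background on either Seltzer 50-day array. A gene with several probe sets is represented below by its brightest, and levels are compared between groups for a probe set, never between probe sets. Statements that groups were apart or overlapped describe the arrays and are no test. With 2 or 3 arrays in a group, groups can be apart by chance. The share of all probe sets that were apart in the same way was not counted.

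**Figure D1:**
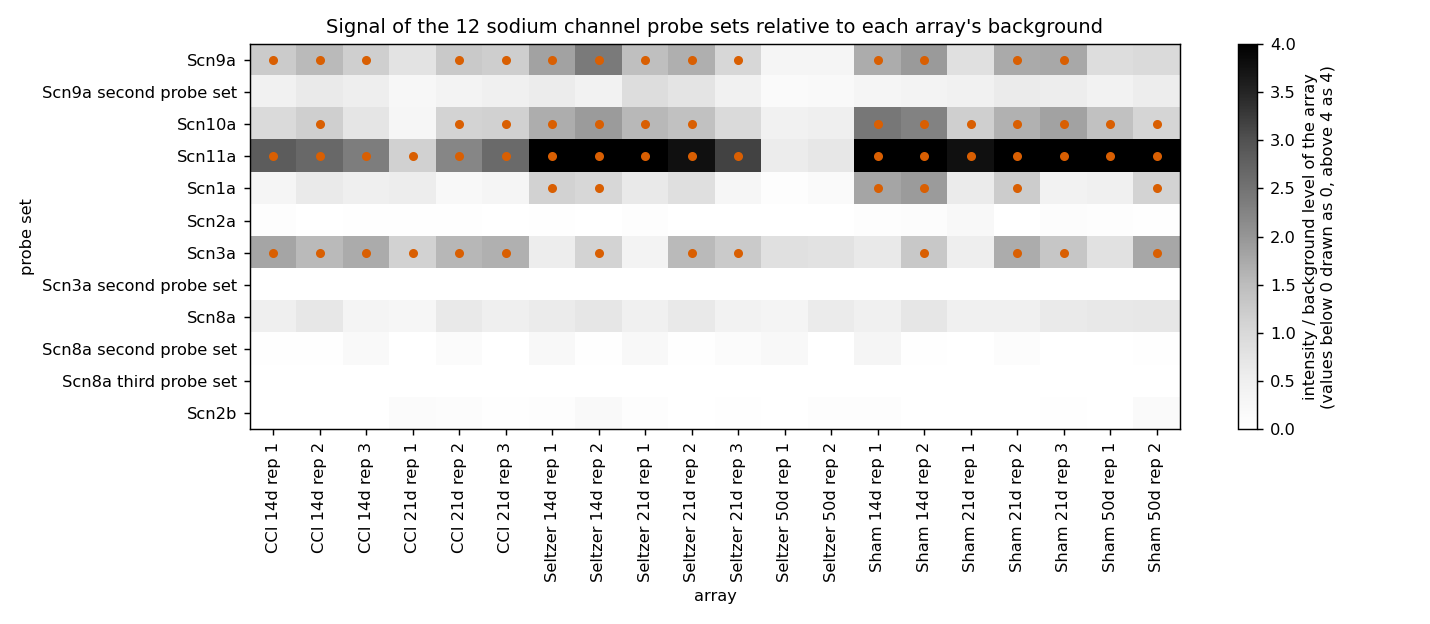
Intensity of each of the 12 channel probe sets (rows) on each of the 20 arrays (columns), divided by the background level of that array, with values below 0 drawn as 0 and values above 4 drawn as 4. Dots mark probe sets above background, which are 18 arrays for Scn11a, 14 each for Scn9a and Scn10a, 13 for Scn3a, 6 for Scn1a, and none on either Seltzer 50-day array.

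After CCI, Scn11a and Scn10a were both lower than in sham ganglia of the same day, and none of the other channel probe sets passed the test. Scn11a was 2.18-fold lower and Scn10a 2.17-fold lower over 14 and 21 days. The other nociceptor channel, Scn9a, differed by 1.25-fold and did not pass, though with array weights it did (-0.43, adjusted p = 0.00761). Of the 12 channel probe sets 2 were lower (1.10% of all 8740 probe sets were) and 0 were higher (1.19% were). Of the 12, 5 had an unadjusted p under 0.05, against 935 of all. The median change of the 12 was -0.15 on the log2 scale, beside 0 for all probe sets. It was -0.68 for the 4 probe sets of the nociceptor channels and -0.04 for the 8 of the other subunits.

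Scn11a had intensities of 571, 467 and 545 at 14 days and of 563, 546 and 615 at 21 days after CCI, against 1737 and 1211 in sham at 14 days and 1202, 895 and 908 in sham at 21 days. Every CCI array lay below every sham array. The group means were 527 ± 54.3 and 574 ± 35.8 (SD, n = 3 each) at 14 and 21 days after CCI, against 1474 ± 372 (n = 2) and 1001 ± 174 (n = 3) in sham. Scn11a fell by 1.11 on the log2 scale (standard error, SE, 0.15, limma adjusted p = 0.000958), and 6 of 6 CCI arrays were below the sham mean of their day, here and below the mean of log2 values.

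Scn10a had intensities of 198, 205 and 168 at 14 days and of 142, 272 and 267 at 21 days after CCI, against 542 and 566 in sham at 14 days and 377, 344 and 331 in sham at 21 days. The CCI and sham arrays again did not overlap. Scn10a averaged 190.3 ± 19.5 and 227 ± 73.9 (SD, n = 3 each) at 14 and 21 days after CCI, against 554 ± 16.9 (n = 2) and 351 ± 23.8 (n = 3) in sham. It fell by 1.06 (SE 0.17, adjusted p = 0.00479), on 6 of 6 CCI arrays. Only 3 of those arrays had Scn10a above background. With sham of 21 days set against both CCI groups the Scn10a change was -0.74 and no longer passed (adjusted p = 0.175), while Scn11a stayed past the threshold (-0.83, adjusted p = 0.036). In whole ganglia, fewer cells of a type and less RNA per cell cannot be told apart.

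Scn9a had intensities of 249, 269.7 and 275 at 14 days and of 388, 314 and 280.03 at 21 days after CCI, against 381 and 482 in sham at 14 days and 267, 362 and 317 in sham at 21 days. The groups were apart at 14 days and overlapped at 21 days. Scn9a had a change of -0.31 (SE 0.12, adjusted p = 0.306), with 4 of 6 CCI arrays below the sham mean log2 value of their day. Its dimmer probe set, below background throughout, had a change of 0.09 (adjusted p = 0.984).

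**Figure D2:**
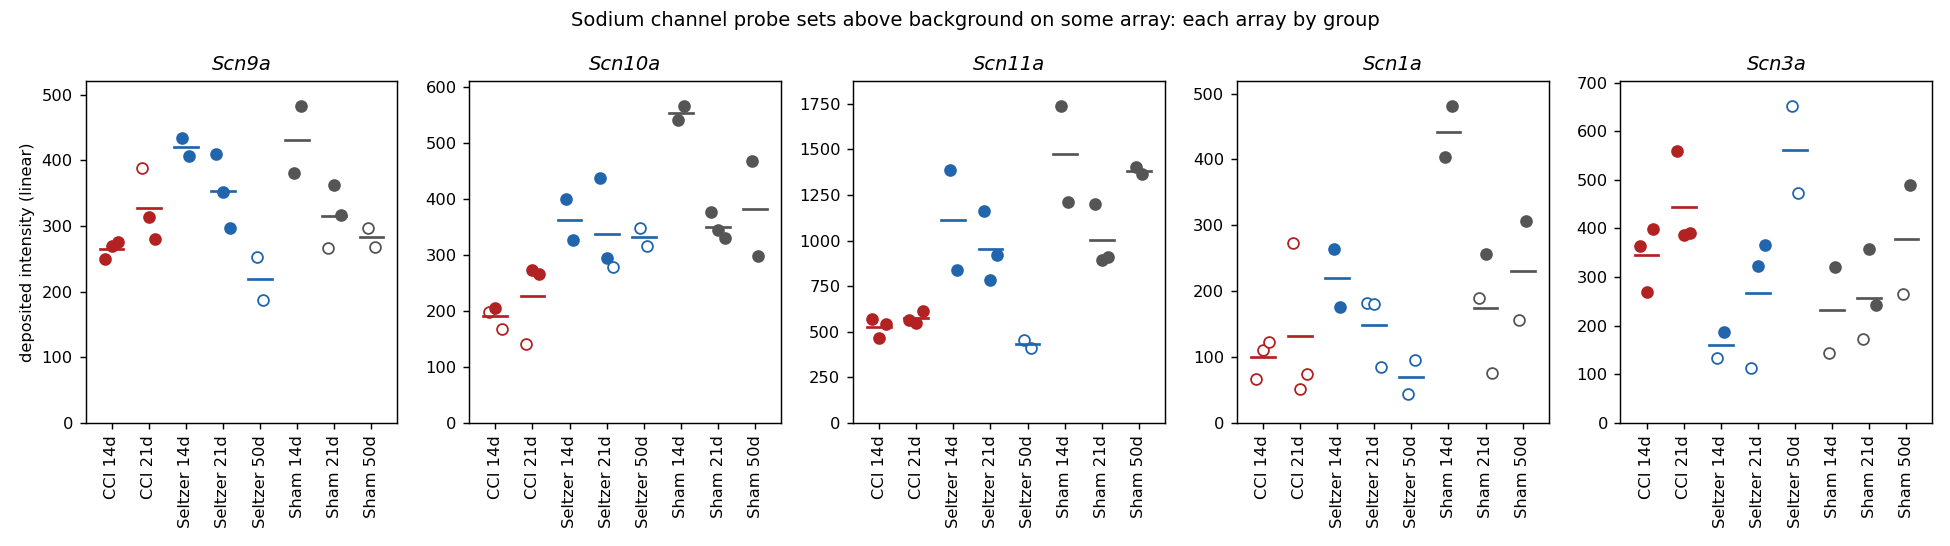
Deposited intensity (linear axes that start at 0 and differ between panels) of the 5 channel probe sets above background on some array, in the 8 groups, with 1 point per array and a bar at the group mean. Filled points are above the background level of their array and open points are not. For Scn10a and Scn11a all 6 CCI points lie below all sham points of 14 and 21 days, and for Scn11a both Seltzer 50-day points lie below both sham 50-day points.

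Among the other subunits, Scn3a pointed up after CCI and Scn1a down, and neither passed. Scn3a had intensities of 364, 270.1 and 399.8 at 14 days and of 559, 386 and 390.1 at 21 days after CCI, against 144 and 320.2 in sham at 14 days and 172, 358 and 242 in sham at 21 days. Its CCI and sham arrays overlapped at 14 days and not at 21 days. The change was 0.70 (SE 0.32, adjusted p = 0.451), a 1.68-fold difference, and Scn3a exceeded the same-day sham mean on 6 of 6 CCI arrays. The other Scn3a probe set gave no value above 0 with which to compare it.

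Scn1a had intensities of 67.3, 110.2 and 123 at 14 days and of 273, 50.7 and 74.0 at 21 days after CCI, against 403 and 481 in sham at 14 days and 189.8, 256 and 76.4 in sham at 21 days. All 6 CCI values were below background, and so were 2 of the 5 sham values. The change was -1.27 (SE 0.41, adjusted p = 0.196), and the value of 273 came from CCI 21-day replicate 1, the CCI array with the highest background. Without that array the change was -1.58 and passed (adjusted p = 0.0282). Scn8a had a change of -0.09 (adjusted p = 0.947), Scn2a of -0.55 (adjusted p = 0.742) and Scn2b of 0.42 (adjusted p = 0.812), all of them below background in both groups.

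**Figure D3:**
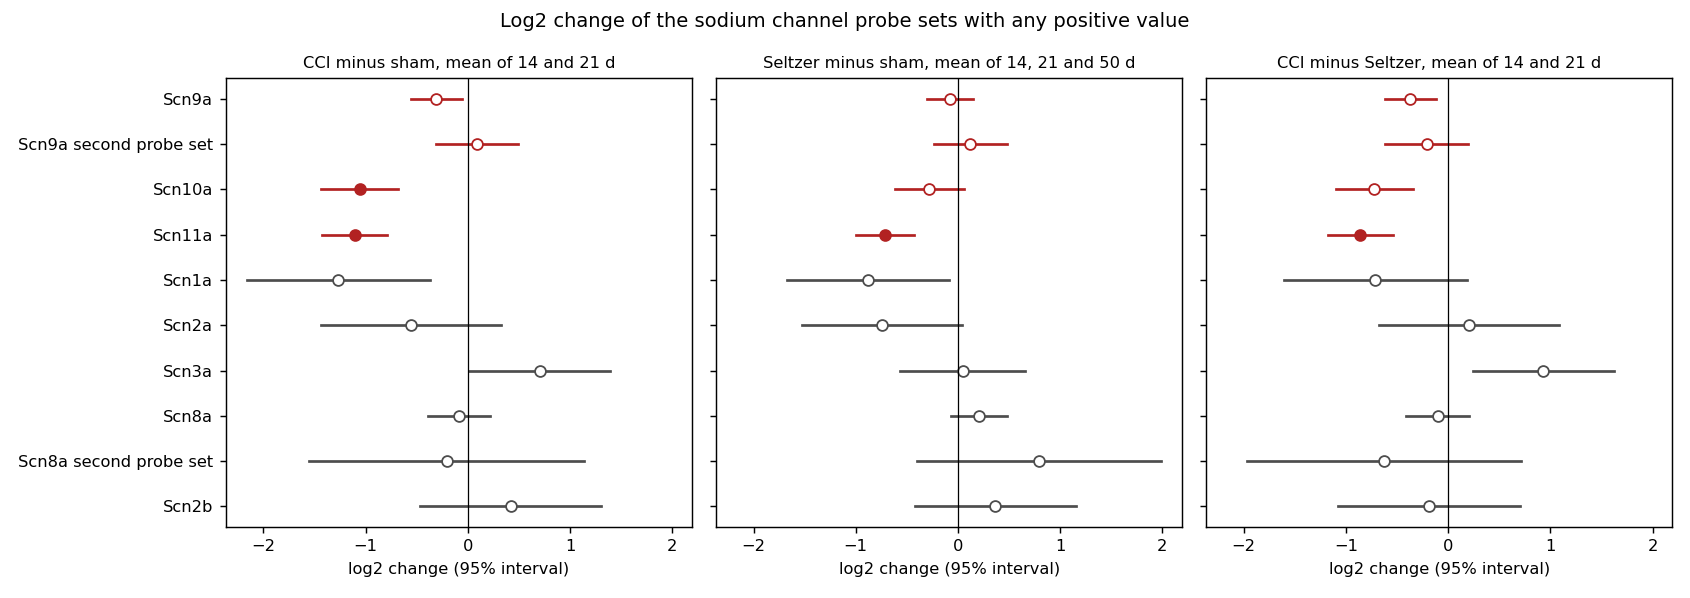
Log2 change with its 95% interval for the 10 channel probe sets that had any value above 0 (rows), in the 3 comparisons averaged over days (panels). Red marks the nociceptor channels Scn9a, Scn10a and Scn11a, grey the other subunits, and filled points passed at an adjusted p of 0.05, namely Scn10a and Scn11a for CCI against sham, and Scn11a for Seltzer against sham and for CCI against Seltzer.

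The start regions of Scn10a and Scn11a are shown because both genes fell after CCI, and that of Scn3a because its change pointed the other way. RefSeq (GRCr8) gave a start region for 7 of the 8 genes, from 250 bases before to 50 after the start of the gene. They are printed 5' to 3' on the gene's strand, which is the minus strand for all 3, and capitals mark matches to a motif. The Scn10a region is chr8:128340249-128340548, that of Scn11a is chr8:128444669-128444968 and that of Scn3a is chr3:70666149-70666448.
Scn10a: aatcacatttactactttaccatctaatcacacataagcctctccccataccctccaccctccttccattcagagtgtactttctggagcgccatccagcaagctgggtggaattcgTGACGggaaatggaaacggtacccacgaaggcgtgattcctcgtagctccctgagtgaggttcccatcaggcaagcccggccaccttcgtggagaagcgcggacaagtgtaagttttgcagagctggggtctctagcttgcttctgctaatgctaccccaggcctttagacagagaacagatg
Scn11a: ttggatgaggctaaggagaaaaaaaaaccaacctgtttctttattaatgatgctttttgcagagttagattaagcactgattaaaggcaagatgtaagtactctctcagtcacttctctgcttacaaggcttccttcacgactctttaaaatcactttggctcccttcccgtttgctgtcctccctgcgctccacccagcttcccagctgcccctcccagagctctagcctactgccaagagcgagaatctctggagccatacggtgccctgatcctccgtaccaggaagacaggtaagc
Scn3a: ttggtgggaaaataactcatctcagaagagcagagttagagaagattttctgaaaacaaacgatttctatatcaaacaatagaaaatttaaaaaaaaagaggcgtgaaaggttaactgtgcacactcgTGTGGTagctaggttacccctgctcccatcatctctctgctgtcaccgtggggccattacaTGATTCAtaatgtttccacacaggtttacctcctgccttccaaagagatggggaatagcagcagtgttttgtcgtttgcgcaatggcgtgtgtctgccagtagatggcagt

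Both strands were searched for 3 motifs. TGANTCA is a loose form, with any middle base, of the AP-1 site read by factors such as Jun. TGACG is part of the site read by the CREB and ATF factors, and TGTGGT is read by RUNX factors such as Runx1. The Scn10a region held TGACG from base -133, counted from the start, and no match to the others. The Scn11a region held none of the 3 motifs. The Scn3a region held TGTGGT from base -122 and TGATTCA, a match to TGANTCA, from base -61, and no overlap between them. Among the 7 channel regions TGANTCA was matched in 1, TGACG in 1 and TGTGGT in 2 (Scn3a and Scn2b). Of all 33469 start regions of the same length, 7.33% held TGANTCA, 21.2% TGACG and 17.3% TGTGGT. A match here describes the letters and not a site in use. The G and C bases made up 52.3% of the Scn10a region, 48.3% of the Scn11a region and 43.3% of the Scn3a region, beside a median of 51.7% over all.

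By day, the fall of Scn10a and Scn11a after CCI passed at 14 days and not at 21 days. At 14 days 2 of the 12 channel probe sets were lower (1.43% of all probe sets were) and 0 higher (1.35% were). Scn10a was 2.92-fold lower (-1.47 on the log2 scale, SE 0.26, adjusted p = 0.00671) and Scn11a 2.76-fold lower (-1.44, SE 0.22, adjusted p = 0.00231). Scn9a had a 14-day change of -0.67 (adjusted p = 0.0658), Scn1a of -2.01 (adjusted p = 0.139, with CCI below background and sham at least 2.18-fold higher) and Scn3a of 0.62 (adjusted p = 0.845). At 21 days 0 of the 12 passed (0.927% of all did, 81 probe sets), and 3 of the 12 had an unadjusted p under 0.05, against 1071 of all. The 21-day changes were -0.65 for Scn10a (adjusted p = 0.307, 1.61-fold), -0.77 for Scn11a (adjusted p = 0.113, 1.73-fold), 0.05 for Scn9a (adjusted p = 1) and 0.79 for Scn3a (adjusted p = 0.478). All 3 CCI arrays lay below all 3 sham arrays for Scn10a and for Scn11a at that day too.

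The difference between the days was tested as the CCI change at 21 days minus that at 14 days. It was 0.82 for Scn10a (SE 0.35, adjusted p = 0.388), 0.66 for Scn11a (SE 0.29, adjusted p = 0.414), 0.71 for Scn9a (SE 0.23, adjusted p = 0.209) and 1.48 for Scn1a (SE 0.83, adjusted p = 0.536). No channel probe set passed, where 1.80% of all did, and 3 of the 12 had an unadjusted p under 0.05 (998 of all). The days also had their own sham arrays. Sham values at 21 minus 14 days differed by -0.64 for Scn10a (adjusted p = 0.329), -0.54 for Scn11a (adjusted p = 0.325), -0.43 for Scn9a (adjusted p = 0.314) and -1.40 for Scn1a (adjusted p = 0.378), where 2.57% of all probe sets passed and no channel did. The Scn10a call at 14 days was lost without sham 14-day replicate 1 (-1.50, adjusted p = 0.0569) or replicate 2 (-1.44, adjusted p = 0.0563). It was also lost with quantile normalization (-1.38, adjusted p = 0.0702) or with arrays centred on their median (-1.35, adjusted p = 0.0906), and the Scn11a call in a fit restricted to CCI and sham of 14 days (-1.44, adjusted p = 0.0557).

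**Figure D4:**
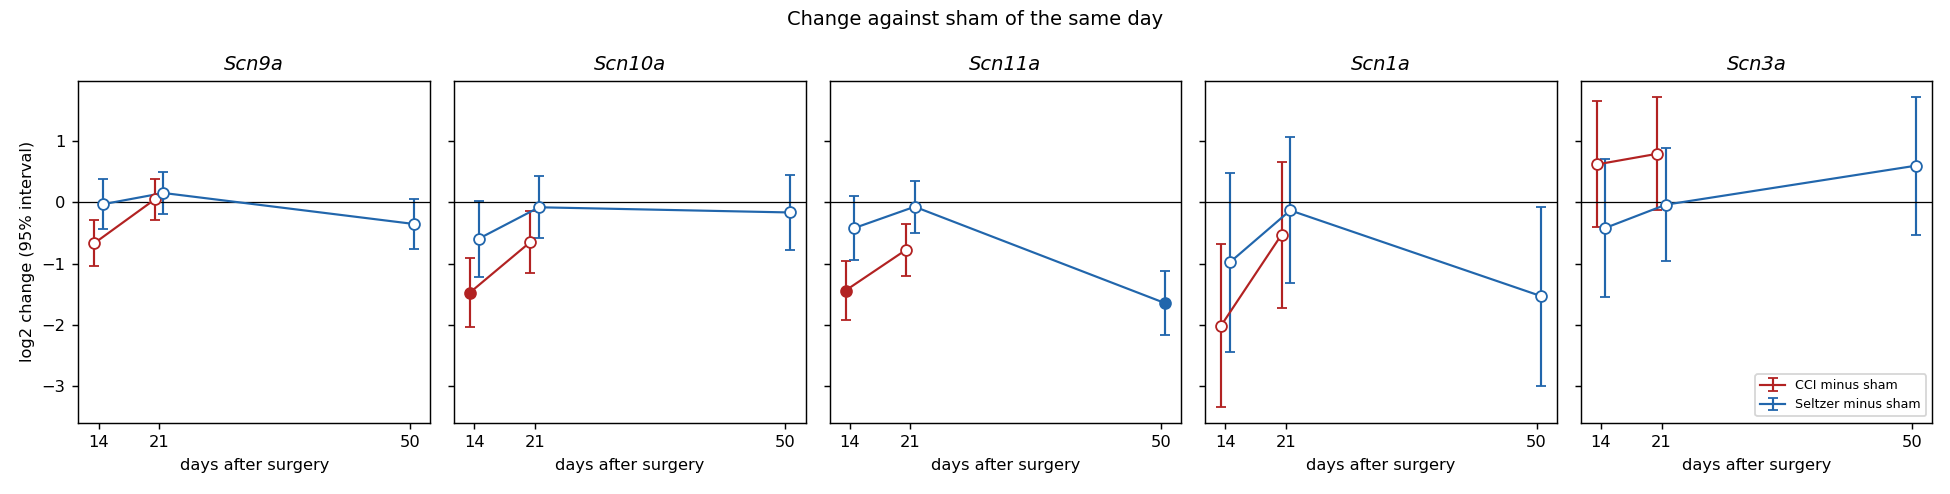
Log2 change against sham of the same day (vertical axis, with its 95% interval) by days after surgery (horizontal axis) for the 5 channel probe sets above background on some array, in CCI (red) and Seltzer ganglia (blue), slightly offset for legibility. Filled points passed at an adjusted p of 0.05, namely Scn10a and Scn11a at 14 days after CCI and Scn11a at 50 days after the Seltzer operation, where all 5 probe sets were below background on both Seltzer arrays.

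After the Seltzer operation, Scn11a alone among the channels passed as lower than in sham. Its fall lay at 50 days, where 7.20% of all probe sets were lower. Scn11a was at least 1.42-fold lower over the 3 days (-0.71, SE 0.13, adjusted p = 0.00762), on 6 of 7 Seltzer arrays. Of the 12 channel probe sets 1 was lower (2.46% of all were) and 0 higher (1.92% were), and 2 had an unadjusted p under 0.05 (1491 of all). The median change of the 12 was 0, beside 0.03 for all probe sets. Scn10a had a change of -0.28 (SE 0.16, adjusted p = 0.412) and Scn9a of -0.08 (SE 0.10, adjusted p = 0.806). Among the other subunits the changes were -0.88 for Scn1a (adjusted p = 0.232), 0.05 for Scn3a (adjusted p = 1), 0.21 for Scn8a (adjusted p = 0.457), -0.74 for Scn2a (adjusted p = 0.328) and 0.36 for Scn2b (adjusted p = 0.715). These comparisons share their 14-day and 21-day sham arrays with those of CCI.

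Scn11a had intensities of 1387 and 840.5 in Seltzer ganglia at 14 days, 1161, 786 and 919.8 at 21 days and 452 and 412 at 50 days, against 1737 and 1211, 1202, 895 and 908, and 1404 and 1363 in sham at the same days. The groups overlapped at 14 and 21 days and were apart at 50 days. At 50 days Scn11a averaged 432 ± 28.1 (SD, n = 2) against 1384 ± 29.0 in sham (n = 2). The changes were -0.42 at 14 days (adjusted p = 1), -0.07 at 21 days (adjusted p = 1) and -1.64 at 50 days (SE 0.24, adjusted p = 0.000611). Both Seltzer 50-day values were below the background level of their arrays, 766 and 599, so the fold is a bound, at least 2.04-fold lower.

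At 50 days 1 of the 12 channel probe sets was lower (7.20% of all were) and 0 were higher (8.72% were). Of the 5 channel probe sets above background on some array 1 was lower, against 520 of all 2818 such probe sets. These shares are near each other, so the count does not set the channels apart. No channel probe set passed at 14 days (0.206% of all did, 18 probe sets, with 0 of the 12 and 330 of all at an unadjusted p under 0.05) or at 21 days (0.378%, 33 probe sets, with 0 of the 12 and 577 of all). The Scn11a change at 50 days minus the mean of those at 14 and 21 days was -1.40 (SE 0.29, adjusted p = 0.00864), where 5.06% of all probe sets passed downwards and 4.61% upwards. Averaged over 14 and 21 days alone the Scn11a change was -0.25 (adjusted p = 1). The call over the 3 days therefore rests on the 50-day arrays, whose background and GAPDH ratios stood apart. The part of RNA quality in the Scn11a value at 50 days was not tested.

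Scn10a had intensities of 399.2 and 327 in Seltzer ganglia at 14 days, 437, 295 and 279 at 21 days and 348 and 316 at 50 days, against 542 and 566, 377, 344 and 331, and 468 and 297 in sham. The groups were apart at 14 days and overlapped at 21 days. At 50 days the Seltzer values were below background levels that exceeded both sham values, so no difference can be read there. Its changes were -0.59 at 14 days and -0.08 at 21 days (adjusted p = 1 for both). Scn9a had 434 and 406, 409, 352 and 298, and 252 and 188 at these days, against 381 and 482, 267, 362 and 317, and 298 and 268 in sham. The 50-day Scn9a values were below background in both groups.

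Scn3a had 133 and 186, 114, 322 and 366, and 651 and 473 at 14, 21 and 50 days after the Seltzer operation, against 144 and 320.2, 172, 358 and 242, and 265 and 490.0 in sham. The groups overlapped at 14 and 21 days, and the 50-day Seltzer values were below background. Scn1a had 264 and 175, 182, 180.4 and 85.2, and 43.6 and 95.7 at these days, against 403 and 481, 189.8, 256 and 76.4, and 156 and 306 in sham. Its groups were apart at 14 days, where the change was -0.98 (adjusted p = 1). At 50 days the background of the Seltzer arrays exceeded both sham values, so no difference in Scn1a can be read.

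Scn8a, below background on every array, had its highest values on the 50-day arrays. They were 283 and 357 after the Seltzer operation, against 217 and 194 in sham of that day, while the other 16 arrays lay between 81.3 and 175. The Seltzer change at 50 days was 0.59 (SE 0.23, adjusted p = 0.105), and sham at 50 minus 21 days differed by 0.70 (SE 0.21, adjusted p = 0.0659). No channel passed in that sham comparison, where 7.46% of all probe sets did. The background levels of these 4 arrays were 766 and 599 in Seltzer ganglia, against 326 and 277 in sham.

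Set against each other over 14 and 21 days, CCI ganglia had less Scn11a than Seltzer ganglia. Scn11a was 1.84-fold lower after CCI (-0.86, SE 0.15, adjusted p = 0.0118), on 6 of 6 CCI arrays, and the 6 CCI values, at most 615, lay below the 5 Seltzer values of these days, at least 786. Of the 12 channel probe sets 1 was lower (0.446% of all were) and 0 higher (0.481% were), and 4 had an unadjusted p under 0.05 (785 of all). The change was -0.72 for Scn10a (SE 0.17, adjusted p = 0.088), -0.37 for Scn9a (SE 0.12, adjusted p = 0.254), -0.71 for Scn1a (adjusted p = 0.694) and 0.93 for Scn3a (SE 0.32, adjusted p = 0.306). All 6 CCI values of Scn10a, at most 272, lay below the Seltzer values of these days, at least 279. With only the CCI and Seltzer groups in the fit, the Scn11a call was lost (-0.86, adjusted p = 0.0583).

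At 14 days Scn11a was 2.05-fold lower after CCI than after the Seltzer operation (-1.02, SE 0.22, adjusted p = 0.0331), 1 of the 12 channel probe sets (0.892% of all were lower and 0.858% higher). At 21 days its change was -0.70 (SE 0.20, adjusted p = 0.248), and 0 of the 12 passed (0.114% of all did, 10 probe sets, with 2 of the 12 and 809 of all at an unadjusted p under 0.05). The 14-day call was lost without CCI 14-day replicate 1 (-1.08, adjusted p = 0.0725), replicate 2 (-0.93, adjusted p = 0.125) or replicate 3 (-1.04, adjusted p = 0.0904). It was also lost without Seltzer 14-day replicate 1, where the change was -0.66 (adjusted p = 0.388).

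The groups with an array above background were put in order for each channel, which leaves out Seltzer at 50 days. For Scn11a the means ran from 527 and 574 (CCI at 14 and 21 days) through 955 (Seltzer at 21 days), 1001 (sham at 21 days), 1114 (Seltzer at 14 days) and 1384 (sham at 50 days) to 1474 (sham at 14 days). Neighbouring groups overlapped except CCI at 21 days below Seltzer at 21 days. For Scn10a they ran from 190.3 and 227 (CCI at 14 and 21 days) through 337 (Seltzer at 21 days), 351 (sham at 21 days), 363 (Seltzer at 14 days) and 383 (sham at 50 days) to 554 (sham at 14 days). Here the breaks were between CCI at 21 days and Seltzer at 21 days, and between sham at 50 and at 14 days.

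For Scn9a, also below background in sham at 50 days, the order ran from 265 ± 13.5 (SD, n = 3, CCI at 14 days) to 419.95 ± 19.8 (n = 2, Seltzer at 14 days) and 432 ± 71.5 (n = 2, sham at 14 days), and no neighbours were apart. Scn3a ran from 159.9 ± 37.6 (n = 2, Seltzer at 14 days) to 445 ± 99.0 (n = 3, CCI at 21 days), again with no break between neighbours. Scn1a was above background on both arrays of a group only at 14 days, with 219.9 ± 63.1 (n = 2) in Seltzer ganglia, against 442 ± 54.7 (n = 2) in sham, and the other groups were not ranked.

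Across the 20 arrays Scn10a and Scn11a moved together, with a Pearson r of log2 intensity of 0.71, and of 0.86 over the 17 arrays left without the 3 of highest background. Scn9a correlated with Scn10a at 0.37 (0.70 over the 17 arrays) and with Scn11a at 0.55 (0.47). Scn3a correlated negatively with the other 4, from -0.38 to -0.65. These values describe arrays that share groups, background and scaling. Among 1349 probe sets of a single gene above background on at least 10 arrays, those closest to Scn11a were Pygb (r = 0.87), a glycogen phosphorylase, Anxa6 (0.86), an annexin, Fbxo2 (0.85), which marks glycoproteins for degradation, Dnm1 (0.84), the dynamin of synaptic vesicle recycling, and the kinase Tnk2 (0.82). Closest to Scn10a were Hs6st1 (0.72), which sulfates heparan sulfate, Smim7 (0.72), Scn11a (0.71), Dgkh (0.68), a diacylglycerol kinase, and the neuronal stress kinase Map3k12 (0.66).

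Of 36 other genes of the sodium channel system listed, 22 were measured, 13 of them above background on some array. They cover other subunits, anchors, node proteins and regulators. After CCI 2 of the 22 were higher and 0 lower (1.19% and 1.10% of all probe sets were). After the Seltzer operation 0 were higher and 2 lower (1.92% and 2.46% of all), and at 50 days alone 3 were higher and 7 lower (8.72% and 7.20% of all). Between CCI and Seltzer 2 were higher and 1 lower (0.481% and 0.446% of all). The median changes were 0.06 for CCI, 0.13 for Seltzer over the 3 days and 0.08 for CCI against Seltzer, and -0.41 for Seltzer at 50 days. Scn7a, an atypical sodium channel beside Scn9a in the genome, was above background on all 20 arrays and had changes of 0.09 after CCI (adjusted p = 0.927) and -0.04 after the Seltzer operation (adjusted p = 0.963). The CCI change averages days that pointed opposite ways. Scn7a had 1350, 1366 and 1437 at 14 days after CCI, against 1688 and 1629 in sham. At 21 days Scn7a had 1383, 1522 and 1643 after CCI, against 1313, 1117 and 953 in sham. At 50 days it had intensities of 1401 and 1134 in Seltzer ganglia, against 2078 and 2124 in sham, and was lower (-0.73, adjusted p = 0.0331). Ank3, the ankyrin that anchors these channels at nodes, had changes of 0.63 (adjusted p = 0.238) and 0.17 (adjusted p = 0.758). S100a10, which carries Nav1.8 to the membrane, had changes of 0.03 (adjusted p = 1) and -0.30 (adjusted p = 0.398). At 50 days it had 872 and 728 in Seltzer ganglia, against 1831 and 1876 in sham, and was lower (-1.20, adjusted p = 0.0173).

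The partner genes past the threshold after CCI were tied to 14 days. Gnb1, a G protein beta subunit, rose after CCI by 2.12 (SE 0.17, adjusted p = 1.56e-05). The change was 4.53 at 14 days (adjusted p = 3.48e-07) and -0.29 at 21 days (adjusted p = 0.617). Its intensities were 2877, 2734 and 2519.5 at 14 days after CCI, against 83.2 and 85.7 at 14 days after the Seltzer operation and 60.1 and 166 in sham at 14 days, while sham at 21 days gave 3109, 3491 and 3326. The 14-day Seltzer and sham arrays thus stood apart from all others for Gnb1. Dpysl2 (CRMP2), which binds Nav1.7, rose after CCI by 0.71 (adjusted p = 0.0164), which was 1.39 on day 14 and 0.02 on day 21, and was lower after the Seltzer operation (-0.49, adjusted p = 0.0426). Its intensities at 14 days were 1141, 1138 and 921 after CCI, against 288 and 226 after the Seltzer operation and 359 and 432 in sham, while sham at 21 days gave 1297, 1037 and 957. Seltzer values of Dpysl2 were also below sham at 50 days (875 and 710 against 1497 and 1476) and overlapped sham at 21 days.

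The 14-day sham and Seltzer arrays were thus alike, and unlike CCI, in both genes. Ank3 split the same way at 14 days, at 239 and 174 in sham and 299 and 283 in Seltzer ganglia, against 461, 469 and 508 after CCI. So did the partner genes Tnc, with CCI higher, and Nfasc, Scn7a, Calm2 and Nrcam, with CCI lower, while S100a10 overlapped. Scn7a, for which CCI and sham values are given above, had 1900 and 1978 in Seltzer ganglia at 14 days. Whether this split bears on the 14-day Scn10a and Scn11a values was not tested. Sptan1, the spectrin of the axon membrane skeleton, was lower after the Seltzer operation (-1.29, adjusted p = 0.000175), with a change of -3.50 at 50 days. Its 50-day values were -392 and -278 in Seltzer ganglia, against 123 and 221 in sham, all below background. Cntn1, an adhesion protein beside the nodes and below background throughout, was lower after CCI than after the Seltzer operation (-0.88, adjusted p = 0.0269).

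Markers of the cells in the ganglion were read beside the channels, and their counts after CCI stand beside 1.10% of all probe sets lower and 1.19% higher. Of 10 markers of small nociceptors other than sodium channels, 1 was lower after CCI, Cd55 (-1.29, adjusted p = 0.024), a complement regulator, and 0 higher, with a median of -0.37. Their summed intensity was 5418 to 5777 at 14 days after CCI, against 7658 to 7911 in sham, and 5536 to 7142 at 21 days after CCI, against 5779 to 8961 in sham. It was thus lower after CCI at 14 days and overlapped at 21 days. P2rx3, an ATP receptor of nociceptors, had a change of -0.37 (adjusted p = 0.503), Trpv1, the capsaicin receptor, of 0.29 (adjusted p = 0.851) and Calca, the CGRP gene, of -0.06 (adjusted p = 1). Larger falls that did not pass were those of Sst (-1.73, adjusted p = 0.112), Calcb (-1.53, adjusted p = 0.346) and Gfra2 (-0.52, adjusted p = 0.373). The changes were -0.38 for Tac1 (adjusted p = 0.545), 0.20 for Ret (adjusted p = 0.307) and 0.44 for Plcb3 (adjusted p = 0.961). Of the 6 neuronal markers 1 was lower, Snap25 (-0.60, adjusted p = 0.00744), a vesicle fusion protein, and their sum overlapped between CCI and sham at both days (9718 to 11794 against 8238 to 10394, and 10947 to 14482 against 11126 to 15827).

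Of 11 markers of large myelinated neurons 1 was lower after CCI, the potassium channel subunit Kcns1 (-1.89, adjusted p = 0.0176), which was above background on 2 of the 20 arrays. Of 11 genes induced by axon injury 6 were higher and 0 lower, and their sum was 12775 to 14464 at 14 days after CCI, against 3510 to 4328 in sham. Of 8 macrophage markers 3 were higher, Lyz2, Cd74 and Ctss, with a sum of 4410 to 5406 against 2182 to 2522 at 14 days and of 3859.5 to 4772 against 1437 to 1957 at 21 days, and Aif1, Ptprc, Itgam and Csf1r were above background on no array. None of 7 satellite glia or 6 Schwann cell markers passed after CCI. Of the satellite glia markers Kcnj10, Slc1a3 and Gja1 were above background on none of the 20 arrays and Fabp7 on 1. S100b stands in both lists. Of 10 skeletal muscle genes 0 passed over both days, but their sum was 10010 to 11041 at 14 days after CCI, against 4155 to 5038 in sham, and 1403 to 1921 at 21 days after CCI, against 4595 to 4867 in sham. The part of these cell types in the channel values was not tested.

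After the Seltzer operation 2 of the 10 small nociceptor markers were lower, P2rx3 (-0.69, adjusted p = 0.0278) and Sst (-1.81, adjusted p = 0.0352), a neuropeptide, and 0 were higher, where 2.46% of all probe sets were lower and 1.92% higher. At 14, 21 and 50 days the changes were -0.33, 0.04 and -1.79 for P2rx3 and -0.32, -0.25 and -4.87 for Sst. Only those at 50 days passed. The sum of the 10 markers was 6360 to 7215 at 14 days after the Seltzer operation, against 7658 to 7911 in sham. At 21 days it overlapped (6784 to 7964 against 5779 to 8961). At 50 days it was 4503 to 5025 in Seltzer ganglia, against 9851 to 10357 in sham, and 4 of the 10 were lower at that day (7.20% of all were). The sum of the 6 neuronal markers at 50 days was 6990 to 7760.5 against 11835 to 12122, and of these 6 markers Elavl4, a neuronal RNA-binding protein, was lower over the 3 days (-0.40, adjusted p = 0.0222). At 50 days alone Uchl1 (-1.17, adjusted p = 0.00359) and Prph (-0.97, adjusted p = 0.0221) were lower, Snap25 was higher (0.76, adjusted p = 0.00988), and Elavl4 had a change of -0.23 (adjusted p = 0.393). Kcns1, above background on 2 of the 20 arrays, was lower among the 11 markers of large myelinated neurons (-1.79, adjusted p = 0.00906). Its changes were -0.89, -0.64 and -3.85 at 14, 21 and 50 days, and only the last passed. Of the 11 axon injury genes 6 were higher. Of the macrophage markers 2 were higher (Cd74 and Ctss). The macrophage sum was 3582 to 4657 at 14 days and 2782 to 3413 at 21 days, against 2182 to 2522 and 1437 to 1957 in sham. At 50 days it was 1976 to 2308 in Seltzer ganglia, against 1413 to 1654 in sham. Of the skeletal muscle genes 1 was higher, Acta1 (0.78, adjusted p = 0.00291), with changes of 0.35, -0.63 and 2.62 at 14, 21 and 50 days. The sum of the skeletal muscle genes at 50 days was 3603 to 4612 in Seltzer ganglia, against 1426 to 1786 in sham. None of the satellite glia or Schwann cell markers passed. Between CCI and Seltzer ganglia 2 of the axon injury genes were higher after CCI, Cacna2d1 (0.87, adjusted p = 0.00093), a calcium channel subunit, and Atf3 (0.57, adjusted p = 0.033), an injury-induced transcription factor, where 0.481% of all probe sets were higher, and no gene of the other cell lists passed. The part of these in the Scn11a value at 50 days was not tested.

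**Figure D5:**
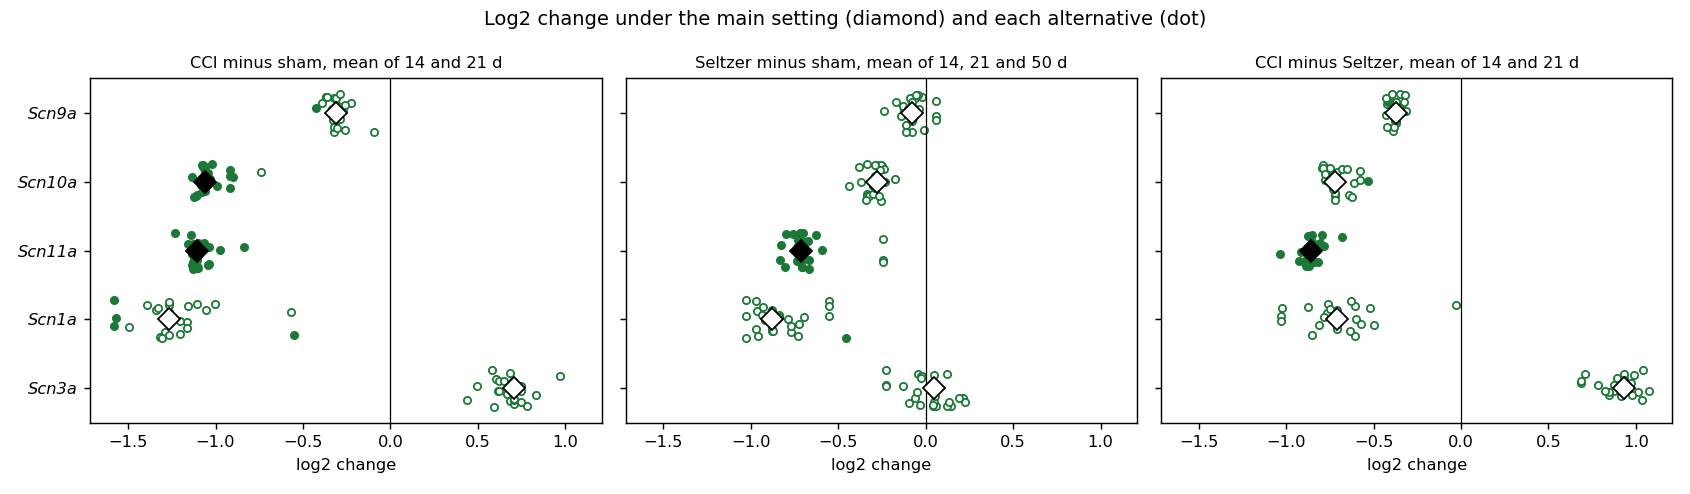
Log2 change of the 5 channel probe sets above background on some array (rows) in the 3 comparisons averaged over days (panels), with a diamond for the value reported above and a dot for each alternative way of processing, filled where the adjusted p was under 0.05. Scn11a after CCI was past the threshold in 24 of 24 alternatives and Scn10a in 23 of 24, while the open Scn11a dots at -0.25 in the Seltzer panel are the alternatives whose mean leaves out 50 days.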

How the data were processed

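The authors deposited 1 linear intensity per probe set and sample. Their software, scaling and background correction were not given in the sources used here. From 8799 probe sets 59 array controls were left out. Negative values were raised to 0, and log2(value + 16) was fitted as 8 group means by limma 3.58.1 under R 4.3.3 (statmod 1.5.0 for array weights), over 20 arrays with 12 residual degrees of freedom. Tests were two-sided, with Benjamini-Hochberg adjustment over 8740 probe sets and a threshold of 0.05. The fit was tested on simulated data. Figures used Python 3.11.15 and matplotlib 3.10.9.

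A fold is the ratio of geometric mean intensities. A dimmer group with no array above background enters at its background level instead, and that fold reads "at least". Log2 changes near background depend on the number added.

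Probe sets were named by the probe table of the platform, with symbols updated to RefSeq. Of the probe sets, 7006 had 1 symbol (6985 found there, 21 not), 308 had several and 1426 none. The members, lists and tests were chosen with earlier results of these data known. All members are named, with the 5 genes most correlated with Scn10a and with Scn11a, and list genes past the threshold (at most 4 a comparison). Scn7a, Ank3, S100a10, Tnc, Nfasc, Calm2, Nrcam, P2rx3, Trpv1, Calca and the remaining small nociceptor markers were named besides after their values were seen. A list gene is read by its brightest probe set.

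The titles of the CCI 21-day samples read "CC1" and were taken as CCI. A lot batch equal to the replicate number is given for 3 CCI arrays, without saying of what. Deviations of same-numbered Seltzer and sham arrays at 21 days correlated at 0.299, 0.226 and 0.110. For CCI and Seltzer arrays at 14 days the correlations were 0.0535 and 0.153. In CCI against sham at 21 days all 3 correlations were under 0.1. These values do not settle whether the numbers pair arrays. Alternatives were a pseudocount of 1 or 64, a floor at 200, quantile normalization, median centring, removal of dim probe sets, fits on just the groups of a comparison, the replicate number as a block, robust eBayes with a trend, array weights, other controls and each array left out.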

Additional observations from a re-analysis of the deposited data

Results flagged for a closer look

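The Scn11a change after the Seltzer operation differed between days, in a comparison where 5.06% of all probe sets passed downwards and 4.61% upwards. It was 1 of 12 channel probe sets, and 379 of the 2818 probe sets above background on some array passed downwards. The Scn11a change at 50 days minus the mean of those at 14 and 21 days was -1.40 (SE 0.29, limma adjusted p = 0.00864). Both 50-day Seltzer values of Scn11a, 452 and 412, were below the background levels of 766 and 599. The GAPDH ratios of these arrays were 8.89 and 5.10, and the part of RNA quality was not tested. Scn11a also differed between the operations. It was lower after CCI than after the Seltzer operation over 14 and 21 days by -0.86 (SE 0.15, adjusted p = 0.0118), on 6 of 6 CCI arrays. Groups held at most 3 arrays, and single arrays were not tested for standing apart from their group.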

How the results depend on the processing

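The count of channel probe sets past the threshold for CCI was 2 and became 4 with array weights and 1 with the 21-day sham arrays as the control of both CCI groups. The Seltzer count was 1. It became 3 with a floor at 200 and 0 as the mean over 14 and 21 days only, with the 3 arrays of highest background left out, or with the 50-day arrays left out of the fit, the last 2 of these chosen after seeing the data. For CCI against Seltzer the count was 1 and became 2 with dim probe sets left out, 3 with array weights and 0 with only the groups compared. With each array left out in turn these counts ran from 1 to 3. The cause of these shifts was not tested. No call turned sign. Of 163 values of called changes under alternatives 146 were past the threshold and 17 were not, and of 2071 values of changes not called 25 passed and 73 had the opposite sign. Scn10a after CCI ran from -1.13 to -0.74 over 24 alternatives and Scn11a from -1.23 to -0.83. Scn9a after CCI passed in 1 of 24, with array weights (-0.43, adjusted p = 0.00761). At 14 days alone Scn9a passed in 2 of 17, with array weights (-0.68, adjusted p = 0.0018) and without the 3 arrays of highest background (-0.67, adjusted p = 0.0291). Against Seltzer at 14 days Scn9a passed in 3 of 17. Scn11a after the Seltzer operation ran from -0.83 to -0.25 and was past the threshold in 24 of 27. With the replicate block no channel count of the 3 comparisons averaged over days changed, Scn10a after CCI was -1.04 (adjusted p = 0.0156) and Scn11a -1.10 (adjusted p = 0.000164), and the Scn11a change after CCI at 21 days passed (-0.77, adjusted p = 0.0204), 1 of 12 probe sets at that day in place of 0. Calls over all probe sets were 200 for CCI, 383 for Seltzer and 81 for CCI against Seltzer. They were 518, 871 and 309 with array weights, and 114, 230 and 43 with median centring. A floor at 200 gave 621 for Seltzer and 132 for CCI against Seltzer, the 21-day sham control gave 86 for CCI, and leaving out the 3 arrays gave 38 for Seltzer and 163 for CCI against Seltzer. Seltzer gave 26 without 50 days in the mean, 21 without the 50-day arrays in the fit and 247 without Seltzer 14-day replicate 2, and CCI against Seltzer gave 152 without CCI 21-day replicate 1. Quantile normalization split the Seltzer calls into 129 higher and 309 lower, against 168 and 215, and those at 50 days into 451 and 787, against 762 and 629. Median centring gave 431 and 775 at 50 days and moved the median of all probe sets by 0.12 for CCI at 14 days, -0.17 for CCI at 21 days and -0.34 for Seltzer at 50 days, and it split CCI against Seltzer into 17 higher and 26 lower, against 42 and 39. Signal over background limits Scn2a, Scn2b and Scn8a in every group, and all channels at 50 days after the Seltzer operation.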
